A study of Homo sapiens with 16 samples.

Results

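The difference between CUTLL1 and KOPTK1, human lines grown from T-cell acute lymphoblastic leukaemia, T-ALL, in their response to targeting of the long non-coding RNA lnrCXCR4 was measured gene by gene in 12 of the 16 RNA-seq libraries of the study. The 12 were chosen by line: all CUTLL1 and KOPTK1 libraries entered, and the 4 libraries of the HPB-ALL line were left out. Per the labels' protocols, the RNA was targeted either by infection with lentivirus carrying CRISPR components or by antisense oligonucleotides (ASOs) given in the culture at 1 uM. In each line, 1 library carried a non-targeting guide and 2 carried guides against the RNA, and likewise 1 library received a scrambled ASO and 2 received ASOs against the RNA. The libraries of a pair are called guide 1 and guide 2, or ASO 1 and ASO 2, as their titles number them. The labels also call them replicates, and they do not state separate cultures, so each p-value reflects the spread among these libraries alone, and that spread may be technical. All 12 cultures were grown in the same serum-containing medium, and the time after treatment is not given in the sources used here.

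T-ALL arises from precursors of T cells in the thymus, and its cells keep much of the gene programme of the thymocyte stage at which they were arrested: the CD1 lipid-presenting molecules, the T-cell receptor with its CD3 signalling chains, and the coreceptors CD4 and CD8. NOTCH1, a receptor that is cut on ligand binding and then acts in the nucleus, drives most of these leukaemias, in large part through MYC. CUTLL1 carries a translocation that joins NOTCH1 to a T-cell receptor locus, and KOPTK1 carries one that activates LMO2. The lines thus differ in these translocations before any treatment. Other lesions, those of NOTCH1 among them, were not examined here in either line. CXCR4, for which the targeted RNA is named, is the receptor for the chemokine CXCL12 and holds leukaemic cells in the bone marrow.

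Libraries held 36427450 to 72178929 reads. The table has 0 entries under the name lnrCXCR4, so the targeted RNA itself was not analysed here and does not check the labels. The labelled cell type was checked with T-cell markers: CD3D lay between 23922 and 35744 normalised counts in CUTLL1 and between 16098 and 24262 in KOPTK1. The marker PTCRA was low in KOPTK1, at 23.0 to 119, against 796 to 2265 in CUTLL1. LMO2 was near 0 in CUTLL1 (3.90 to 32.2) and at 5924 to 9169 in KOPTK1. Within a line, guide and ASO libraries were close: the chi-square per gene between recovered counts was 2.29 to 4.28 between the guide and ASO controls and 2.86 to 14.6 between guide-targeted and ASO-targeted libraries, with CUTLL1 ASO 1, whose reads were not recovered, left out. The same measure was 3.74 to 6.77 between the 2 targeted libraries of 1 agent. It was 168 to 276 between a control and a targeted library of a line and 245 to 523 between lines.

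The libraries that stood apart most are given first. In CUTLL1, the ASO control and ASO 1 carried 0.405% and 0.174% of the KOPTK1 level of 26 genes that are close to absent from CUTLL1, against 0.0517% to 0.0908% in the other 4 CUTLL1 libraries. Guide 2 of CUTLL1 held more of several short non-coding RNAs, such as RN7SK at 995 against 134 to 229 in the other CUTLL1 libraries. Guide 1 of KOPTK1 held fibroblast genes, with COL1A1 at 426 against 21.4 to 34.2 in the other targeted KOPTK1 libraries, and COL1A2 at 276 where the other 11 libraries were at 0. Smaller departures were seen elsewhere in KOPTK1. Its guide control, ASO control and ASO 2 carried 0.130%, 0.120% and 0.134% of the CUTLL1 level of 28 genes close to absent from KOPTK1. The other KOPTK1 libraries carried 0.0482% to 0.0882%. RN7SL2 read 594 in the ASO control and 542 in ASO 2 of KOPTK1, against 170 to 383 in its other libraries. Results that rest on the CUTLL1 libraries named above or on guide 1 of KOPTK1 are given below with and without them.

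The quantity followed throughout is the line difference: the log2 fold change of targeted over control in CUTLL1 minus that in KOPTK1, with guides and ASOs each compared with their own control. A positive line difference means that a gene rose more, or fell less, in CUTLL1. A gene was called when limma's moderated test gave an adjusted p (Benjamini-Hochberg over 13703 genes) under 0.05. Levels below are normalised counts per library, with controls in the order guide, ASO and targeted libraries in the order guide 1, guide 2, ASO 1, ASO 2. Fold changes are on the log2(value + 1) scale, which understates those of low genes. A lone control has no SD of its own.

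Both lines responded broadly and largely alike. In CUTLL1, 4895 genes rose (35.7%) and 5045 fell (36.8%), and in KOPTK1, 4881 rose (35.6%) and 5160 fell (37.7%). The SD of the effects over genes was 0.87 in CUTLL1 and 0.90 in KOPTK1, and the effects correlated over genes with Pearson's r of 0.80 and Spearman's rho of 0.83, where genes are not independent replicates. Against this shared response, 3670 genes (26.8%) were called for the line difference, 1822 (13.3%) above 0 and 1848 (13.5%) below. Most differences were small: the median size among called genes was 0.35, 69.7% were under 1.5-fold, and 334 above and 302 below exceeded 2-fold. The count fell to 2376 without the CUTLL1 ASO control, and to 2001 without that control and CUTLL1 ASO 1 together.

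**Figure D1:**
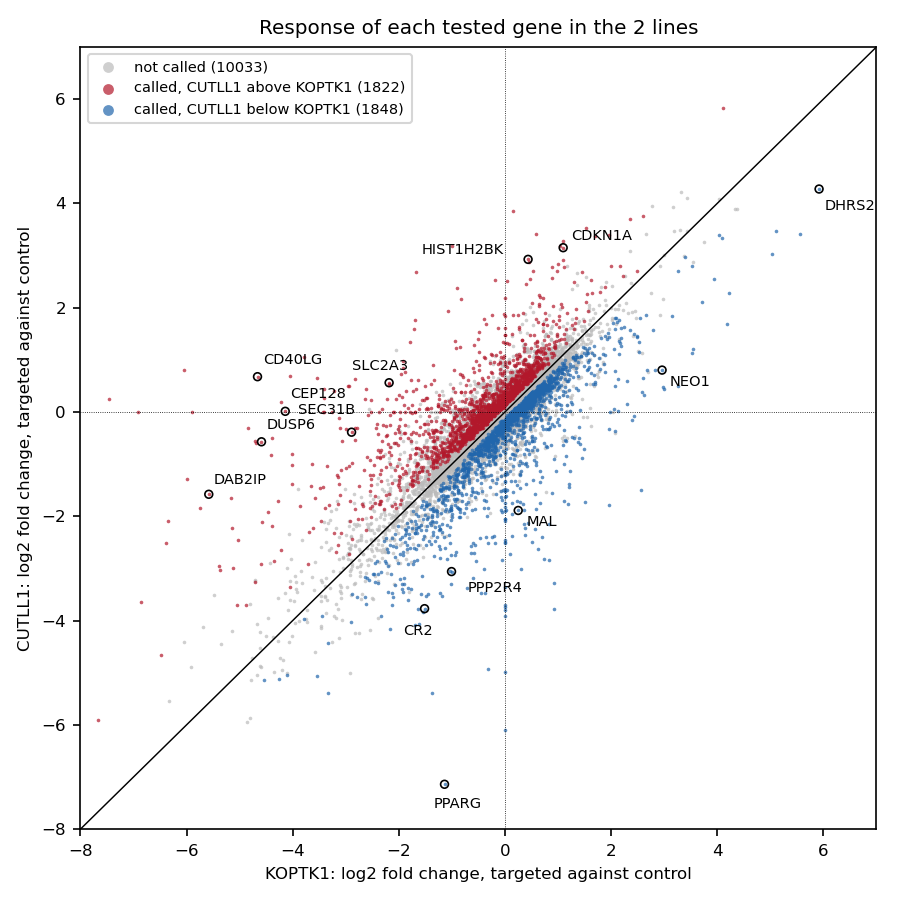
Each point is a tested gene, placed by its log2 fold change of targeted over control libraries in KOPTK1 (x axis) and CUTLL1 (y axis); the diagonal marks equal effects. Coloured points are the 1822 genes called above and the 1848 called below the diagonal, and circled genes are described in the text.

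The called genes divide by what each line did. A further fall in KOPTK1 of a gene that fell in both lines was the commonest pattern, with 625 genes, and 594 genes fell in both but further in CUTLL1. Genes that rose in both numbered 455 with the larger rise in CUTLL1 and 579 with the larger rise in KOPTK1. Changes in 1 line alone comprised 262 rises and 298 falls in CUTLL1 and 260 rises and 359 falls in KOPTK1, and 228 genes were called in opposite directions. The plot of the effects in the lines shows these groups as a cloud along the diagonal with arms to the left, where KOPTK1 alone lost expression, and downwards, where CUTLL1 did.

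CEP128, which encodes a centriolar appendage protein, lost nearly all of its expression in KOPTK1 and had no called change in CUTLL1. It read 3458 and 3596 in CUTLL1 controls and 3565, 3692, 3513 and 3465 in targeted CUTLL1 libraries, but 1362 and 1376 in KOPTK1 controls and 71.4, 72.5, 70.1 and 95.2 after targeting. In KOPTK1 the highest targeted library lay far below both controls, while in CUTLL1 the groups overlapped. The line difference was 4.15 (SE 0.13, adjusted p 7.15e-10, limma). DUSP6, a phosphatase that turns off the MAP kinase ERK and is itself an ERK target, fell from 1897 and 1934 to 87.4, 67.9, 76.2 and 84.4 in KOPTK1. In CUTLL1 it fell by 0.57 on the log2 scale, from 3600.3 and 3800.1 to 2529, 2450.0, 2563 and 2413, and its line difference was 4.02 (SE 0.12, adjusted p 4.88e-10). DAB2IP, a GTPase-activating protein for RAS, fell in both lines, from 653 and 642 to 18.5, 10.4, 15.8 and 8.04 in KOPTK1 and from 1956 and 1874 to 636, 658, 628 and 638 in CUTLL1 (line difference 4.0, SE 0.32).

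Of the 10249 genes whose mean reached 100 in each line, 3055 were called (29.8%). The genes of this and the next 5 paragraphs, unless named by the fixed rule, were picked from them by size after their values were seen. SEC31B, a coat component of vesicles leaving the endoplasmic reticulum, dropped from 12141 and 11304 to 1622, 1550.1, 1645 and 1500.0 in KOPTK1, whereas CUTLL1 went from 1320.1 and 1283 to 984, 1025, 999 and 971. SLC2A3, the glucose transporter GLUT3, went in opposite directions: 319 and 313 fell to 64.0, 63.3, 80.6 and 68.4 in KOPTK1, and 1207 and 1145 rose to 1729, 1727, 1779 and 1702 in CUTLL1 (line difference 2.74, SE 0.12, adjusted p 8.12e-09). The neighbouring genes TMC6 and TMC8, whose products together form a complex at the endoplasmic reticulum, differed by nearly the same amount, 1.97 (SE 0.069) and 1.99 (SE 0.057). TMC8 fell in both lines from like control levels, 7899 and 7685 in KOPTK1 and 7998 and 7969 in CUTLL1, and reached 696, 702, 740.2 and 759 in KOPTK1 and 2870.5, 2828, 3106 and 2998 in CUTLL1. STAG3, the meiotic cohesin subunit, fell by 1.83 in KOPTK1 alone, from 683 and 681 to 193, 192, 218 and 165, with CUTLL1 at 1388 and 1389.9 and 1412, 1451, 1519.5 and 1499. CD300A, an inhibitory receptor of leukocytes, and TRAF3IP2, an adaptor of the IL-17 receptor, fell in both lines and further in KOPTK1, with line differences of 2.20 (SE 0.088) and 2.56 (SE 0.23).

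The mirror pattern, loss in CUTLL1 with KOPTK1 spared, was clearest for MAL, a raft protein of T cells that helps carry LCK to the membrane. MAL read 2857 and 2878 in CUTLL1 controls and 777, 719, 815 and 785 after targeting, against 26714 and 25837 and 31237, 29757, 32587 and 31414 in KOPTK1. It thus fell by 1.89 in CUTLL1 and rose by 0.25 in KOPTK1, and the groups did not overlap in either line (line difference -2.14, SE 0.059, adjusted p 3.57e-10). HDHD1, a pseudouridine phosphatase, fell from 7022 and 6609 to 2259.9, 2170.5, 2261 and 2203 in CUTLL1 and read 1646 and 1624 in KOPTK1 controls and 1679.8, 1621, 1644 and 1645 in targeted KOPTK1 libraries. TRGC2, a constant segment of the T-cell receptor gamma chain, fell from 348 and 352 to 89.3, 88.1, 99.9 and 101 in CUTLL1 with KOPTK1 at 3165 and 3066 and 3227, 3070.3, 3220.0 and 3106. These 3 genes had no called change, or a rise, in KOPTK1.

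Other genes fell in both lines and deeper in CUTLL1. PPP2R4, which encodes the activator of protein phosphatase 2A, fell from 1200.1 and 1195 to 144, 152, 149 and 128 in CUTLL1 and from 7473 and 7431 to 3682, 3521, 3940.1 and 3694 in KOPTK1 (line difference -2.05, SE 0.088). PARP14, an ADP-ribosyltransferase, fell by 2.56 in CUTLL1 and 0.65 in KOPTK1. CD248, the surface glycoprotein endosialin, started at similar control levels, 318 and 314 in CUTLL1 and 404 and 374 in KOPTK1. It ended at 41.4, 35.1, 51.0 and 43.9 in CUTLL1 and 225, 238, 310.1 and 300.3 in KOPTK1 (line difference -2.32, SE 0.19, adjusted p 3.24e-06).

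**Figure D2:**
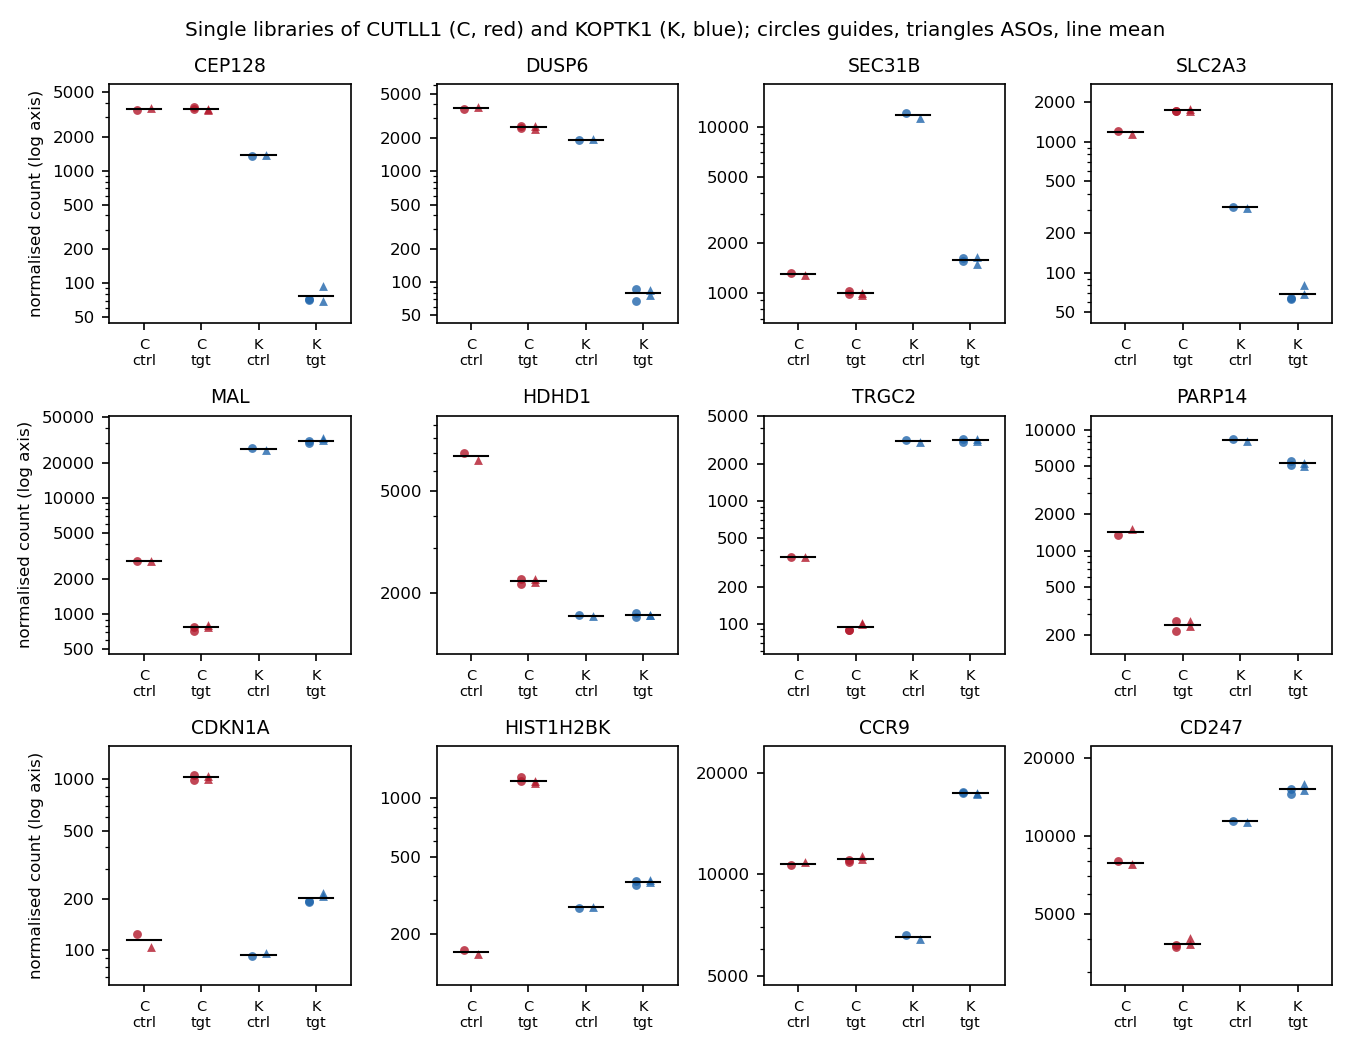
Normalised counts on a log axis in each of the 12 libraries for 12 genes; C is CUTLL1, K is KOPTK1, circles are guide libraries, triangles ASO libraries and bars the mean of a group. Guide and ASO libraries of a group lie close together, and the lines separate by the step from control (ctrl) to targeted (tgt).

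Inductions also differed in size. ABTB2 (an ankyrin-repeat and BTB-domain protein) rose from 63.4 and 63.3 to 629, 643, 592 and 625 in CUTLL1, and from 178 and 197 to 378, 443, 394 and 387 in KOPTK1, a line difference of 2.18 (SE 0.12, adjusted p 9.55e-08). FRMD6, a FERM-domain protein upstream of the Hippo kinases, rose by 3.52 in CUTLL1 and 1.53 in KOPTK1. SOGA2 rose from 122 and 124 to 650.2, 702, 716 and 666 in CUTLL1 and from 513 and 531 to 684, 689, 715 and 676 in KOPTK1, so both lines reached a like level from different starting points. In the other direction, NEO1, the netrin receptor neogenin, was close to absent from KOPTK1 controls (28.1 and 41.1) and rose to 281, 275, 269 and 261, against a rise from 2783 and 2795 to 4796, 4995, 4820.3 and 4862 in CUTLL1 (line difference -2.16, SE 0.14). KIAA1522 behaved likewise, with rises of 2.31 in KOPTK1 and 0.59 in CUTLL1.

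DHRS2, a mitochondrial reductase, was strongly induced in each line: from 6.83 and 15 to 205, 222, 207 and 229.7 in CUTLL1 and from 23.2 and 18.9 to 1402, 1265, 1341 and 1312 in KOPTK1. Its line difference of -1.64 was not called under quantile scaling (-0.77, adjusted p 0.0762). EFR3B, a membrane anchor for a lipid kinase, had a line difference of -1.64. It became -0.87, adjusted p 0.00311 without the KOPTK1 ASO control, which read 5.87 where the guide control read 16.5, and the call was lost without the CUTLL1 ASO control and ASO 1 together (-1.49, adjusted p 0.0555).

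Opposite responses were called in 119 genes that rose in CUTLL1 and fell in KOPTK1, and in 109 with the reverse. Where both lines expressed the gene well, the opposing changes were modest. CD247, the zeta signalling chain of the T-cell receptor, fell from 7996 and 7817 to 3809, 3719, 3838 and 4027 in CUTLL1 and rose from 11479.5 and 11345 to 15217, 14585, 15919 and 15153 in KOPTK1 (line difference -1.45, SE 0.051, adjusted p 1.44e-09). GBE1, the glycogen branching enzyme, fell by 0.96 in CUTLL1 and rose by 0.59 in KOPTK1. EOGT, which adds O-linked N-acetylglucosamine to EGF repeats such as those of NOTCH receptors, fell from 304 and 321 to 122, 134, 139.9 and 109 and rose from 174 and 182 to 241, 278, 271 and 244. FADS2, a fatty acid desaturase, and INSR, the insulin receptor, followed the same way, with line differences of -1.0 (SE 0.043) and -0.75 (SE 0.075).

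The reverse was seen in RDH10, a retinol dehydrogenase that starts retinoic acid synthesis. It rose from 239 and 257 to 557, 542, 549 and 557 in CUTLL1 and fell from 3659.9 and 3837 to 2469, 2834, 2609 and 2838 in KOPTK1. SERINC5, a membrane lipid scramblase, rose by 1.04 and fell by 0.38. PRKCE, the epsilon isoform of protein kinase C, rose by 0.40 and fell by 0.63, and JAK3, the kinase of the common gamma chain receptors, rose by 0.33 and fell by 0.40. Leaving out any 1 library changed none of these genes' calls for the line difference. The calls within each line were not tested again in this way.

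**Figure D3:**
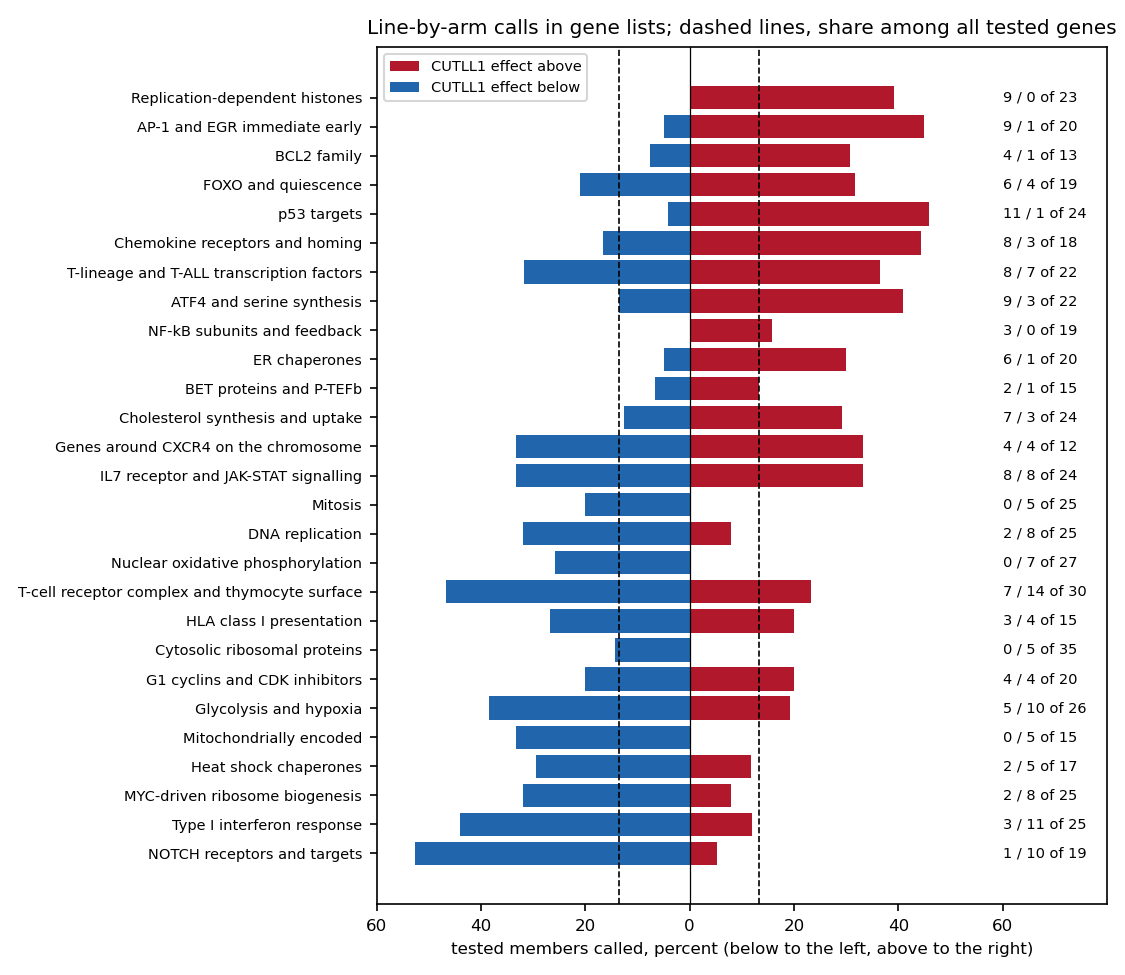
For each gene list, the percentage of tested members called with the CUTLL1 effect below (left, blue) or above (right, red) the KOPTK1 effect, with the counts above / below at the right. Dashed lines mark 13.5% and 13.3%, the shares among all 13703 tested genes; lists are ordered by their median line difference.

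Nearly all tested surface and receptor genes of thymocytes fell in both lines, and the depth of the fall differed between the lines in both directions. Of 30 tested members of the T-cell receptor and thymocyte list, 30 fell in CUTLL1 and 28 fell and 1 rose in KOPTK1, against 36.8% and 37.7% of all genes that fell. The line difference was called above 0 for 7 (23.3%) and below 0 for 14 (46.7%). For this and every later list, the shares among all tested genes to compare with are 13.3% above and 13.5% below. The median of this list was -0.05, with a sign that varied when a library was left out (-0.11 to 0.02, above 0 without KOPTK1 ASO 1), and -0.13 under quantile scaling. In bulk RNA, a lower share of cells with a transcript and less of it per cell cannot be told apart, here and below.

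The members above 0, which fell further in KOPTK1, included CD1A, CD1B and CD1C, lipid-presenting molecules of cortical thymocytes, whereas CD1D was not called (0.11) and CD1E was called below 0. CD1C read 1855 and 1789 in CUTLL1 controls and 565, 569, 567 and 541 after targeting, against 1612 and 1597 and 93.6, 100.1, 77.1 and 63.0 in KOPTK1 (line difference 2.57, SE 0.15, adjusted p 1.05e-07). CD1B fell from 31425 and 30649 to 4188, 4335, 4182 and 4326 in CUTLL1 and from 12700.1 and 12528 to 619, 587, 594 and 685 in KOPTK1. CD1A differed by 1.35 (SE 0.17). The coreceptor CD4 fell by 0.43 in CUTLL1, to 13378, 13379, 13635 and 13666, and by 1.54 in KOPTK1, to 957, 937, 855 and 894. CD38, CD3E and DNTT, which encodes the polymerase that adds bases at receptor joints, were the other members above 0, at 0.54, 0.47 and 0.81.

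The 14 members below 0 fell further in CUTLL1 or, for CD247, fell in CUTLL1 alone. LCK, the kinase that starts receptor signalling, fell from 22684 and 22772 to 3738, 3867, 3881 and 3951 in CUTLL1 and from 37519 and 37014 to 11944, 11629, 12127 and 12007 in KOPTK1 (line difference -0.91, SE 0.039, adjusted p 8.35e-09). TRAT1, an adaptor that stabilises the receptor, fell to 275, 283, 255 and 243 in CUTLL1 and 799, 809, 739 and 717 in KOPTK1 from similar control levels (2950.5 and 2942 and 3229.8 and 3464). The coreceptor chain CD8B differed by -1.13, and CD28, CD5, CD6 and the receptor phosphatase UBASH3A by -0.59, -0.49, -0.62 and -0.73. CD3D was lower by 0.51 in CUTLL1 and 0.46 in KOPTK1, and its line difference of -0.05 was not called. The call of CD1E (-0.18) was lost without the CUTLL1 ASO control (-0.16, adjusted p 0.08) or the KOPTK1 guide control (-0.11, adjusted p 0.0912).

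**Figure D4:**
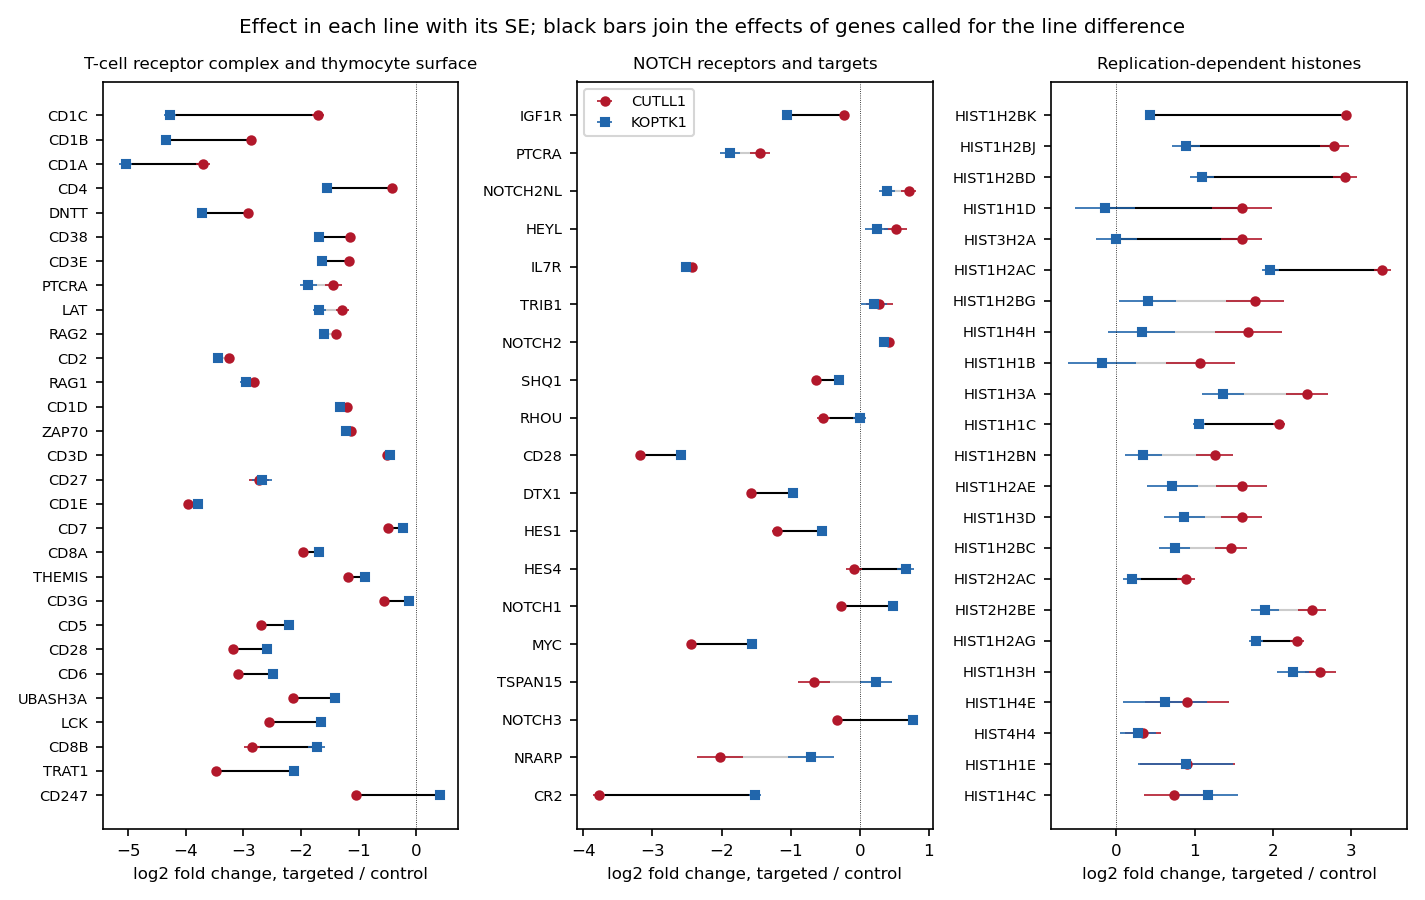
Log2 fold change of targeted over control in CUTLL1 (red circles) and KOPTK1 (blue squares) for the tested members of 3 lists, less 1 of the first, with the SE of each effect as whiskers; black connecting bars mark genes called for the line difference and grey bars those that were not. In the left panel CD1C, CD1B and CD1A lie further left in KOPTK1, and LCK and TRAT1 further left in CUTLL1; in the right panel the called histone genes lie further right in CUTLL1.

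Of 19 tested NOTCH receptors and targets, 10 were called below 0 and 1 above, with a median line difference of -0.59 (-0.63 to -0.50 when 1 library was left out). NOTCH1 and NOTCH3 moved in opposite directions in the lines, and NOTCH2 rose in both, by 0.42 in CUTLL1 and 0.35 in KOPTK1, with no called difference. NOTCH1 fell from 26184 and 26751 to 21738, 21571, 22201 and 22295 in CUTLL1 and rose from 18394 and 17627 to 23747, 24675, 25913 and 26157 in KOPTK1. The groups did not overlap in either line, and the line difference was -0.75 (SE 0.048, adjusted p 3.69e-07). NOTCH3, itself a NOTCH1 target, fell from 21978 and 22862 to 17634, 17504, 18034 and 18036 in CUTLL1 and rose from 6628 and 6214 to 10249, 10666, 11366 and 11533 in KOPTK1.

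Of the targets, MYC, DTX1, HES1, CR2 and SHQ1 fell in both lines and less in KOPTK1, while over the list 14 members fell and 3 rose in CUTLL1 and 9 fell and 5 rose in KOPTK1. MYC dropped from 10466 and 10295 to 1931, 1804, 2051 and 1898 in CUTLL1 and from 17124 and 16789 to 5764, 5569, 6086 and 5689 in KOPTK1 (line difference -0.88, SE 0.064). DTX1, a ubiquitin ligase that regulates NOTCH, fell by 1.58 and 0.96, and HES1, the classical NOTCH-induced repressor, fell by 1.19 and 0.55. CR2, the complement receptor CD21, fell from 415 and 393 to 27.6, 25.6, 29.0 and 32.7 in CUTLL1 and from 3144 and 3118 to 1089, 1071, 1112 and 1107 in KOPTK1, the largest line difference of the list at -2.26 (SE 0.12). SHQ1, an assembly factor for box H/ACA particles, differed by -0.32.

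HES4 was called at -0.75, but without the KOPTK1 ASO control the value was -0.45, adjusted p 0.0528. RHOU, a small GTPase, lost its call of -0.53 without the CUTLL1 ASO control (-0.44, adjusted p 0.0891) or the KOPTK1 guide control (-0.50, adjusted p 0.0678). IGF1R, the receptor for insulin-like growth factor 1, was the member above 0: it fell by 1.05 in KOPTK1, from 3042 and 2905 to 1415, 1516, 1359 and 1442, and by 0.23 in CUTLL1. The ribosome biogenesis genes that MYC drives fell in both lines, 25 of 25 in CUTLL1 and 23 of 25 in KOPTK1, and 8 were called below 0 and 2 above with a median of -0.11, or -0.03 under quantile scaling. The 8 became 4 without the CUTLL1 guide control and 5 without the CUTLL1 ASO control and ASO 1 together. NOP56, NOP58, POLR1B and WDR43 were the most clearly separated of them, with line differences of -0.22, -0.23, -0.29 and -0.22.

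Transcription factors of the T lineage split both ways, 8 above 0 and 7 below of 22 tested. The count above was 5 without the CUTLL1 guide control, and the count below was 3 without the CUTLL1 ASO control and 4 without CUTLL1 ASO 2, the KOPTK1 guide control or the KOPTK1 ASO control. LEF1 rose from 36630.0 and 37488 to 43308, 42261, 42436 and 42228 in CUTLL1 and fell from 32165 and 31374 to 22759, 23585, 23190.0 and 24155 in KOPTK1. Its partner factor TCF7, which binds the same DNA motif, went the other way, falling from 47937 and 46778 to 40440.0, 39096, 40717 and 40503 in CUTLL1 and rising from 71782 and 69551 to 76341, 74762, 79037 and 76636 in KOPTK1. The line differences were 0.64 (SE 0.042, adjusted p 3.87e-07) and -0.35 (SE 0.043, adjusted p 8.07e-05); that of TCF7 was -0.24, adjusted p 0.00275 under quantile scaling. IKZF2, the Ikaros-family factor Helios, fell further in KOPTK1 (by 1.5 against 0.83), and ID3, an inhibitor of the E-protein factors, fell further in CUTLL1 (by 1.21 against 0.26). GATA3 fell by 0.64 in CUTLL1 and 0.99 in KOPTK1, and ETS1 fell in KOPTK1 alone, from 22852 and 22345 to 17935, 18484, 17993 and 18234.

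Receptors that guide lymphocytes to tissues mostly fell in both lines: 14 of 18 tested fell in CUTLL1 and 15 in KOPTK1. The line difference was called above 0 for 8 and below 0 for 3. CCR9, the receptor that draws T-cell precursors to the thymus and gut, rose in KOPTK1 from 6605 and 6424 to 17511, 17439, 17261 and 17393, while CUTLL1 read 10674 and 10862 in controls and 10875, 10996, 11309 and 11123 after targeting (line difference -1.38, SE 0.033, adjusted p 2.09e-10). SELPLG, the ligand of P-selectin, fell from 5921 and 5913 to 1072, 1133, 1139 and 1119 in CUTLL1 and from 10971 and 10550.5 to 4779.6, 4659.5, 4946 and 5048 in KOPTK1. CXCR4 rose in both lines, from 24919.8 and 24422 to 27137, 26597, 26995 and 27914 in CUTLL1 and from 18309 and 17550.1 to 25023, 23881, 25459 and 24588 in KOPTK1, with a line difference of -0.33 (SE 0.046, adjusted p 0.000247).

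Of the adhesion genes in the list, ITGAL, ITGB1, ITGB7, ICAM1 and ICAM2 were not called, and PTK2B, ITGA4 and CD44 fell further in KOPTK1. PTK2B, a focal adhesion kinase of blood cells, fell from 6505 and 6376 to 2536, 2422, 2635 and 2598 in KOPTK1 and from 2258 and 2346 to 1764, 1709, 1804 and 1747 in CUTLL1. The integrin chain ITGA4 fell by 2.77 and 2.05, and CD44 by 1.32 and 0.35, in KOPTK1 and CUTLL1 in that order. All 3 were called, with line differences of 0.95, 0.72 and 0.97.

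Replication-dependent histone genes, whose transcripts mostly end in a stem-loop rather than a poly(A) tail, rose more in CUTLL1. Their summed share of normalised counts went from 0.00499% to 0.00560% in CUTLL1 controls to 0.0189% to 0.0220% in targeted libraries, and from 0.00293% to 0.00332% to 0.00483% to 0.0063% in KOPTK1. Of 23 tested members, 19 rose in CUTLL1 and 12 in KOPTK1, and 9 were called above 0 and 0 below, with a median line difference of 0.91, or 1.43 over members with a mean of at least 100. Without guide 2 of CUTLL1, the library with high short non-coding RNAs, 8 were called and the median was 0.79. With any 1 library left out, the median line difference ran from 0.79 to 1.08. Whether the kind of RNA selected for sequencing plays a part was not tested.

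The promoters of 3 of these genes with an octamer motif, and of HIST1H1C, which has none in the window searched, are shown as examples. They are not a ranking: HIST1H2BD, called with a line difference of 1.82, also has no octamer and is not shown. The sequences are the 140 bases before the RefSeq start site (GRCh38.p14, a build other than the hg19 named in the submitters' processing notes), read 5′ to 3′ on the gene's strand. Capitals mark the octamer, ATTTGCAT or its reverse complement ATGCAAAT. Positions are chr6:27146859-27146998 (minus strand) for HIST1H2BK, chr6:27132796-27132935 (minus) for HIST1H2BJ, chr6:26124032-26124171 (plus) for HIST1H2AC and chr6:26056471-26056610 (minus) for HIST1H1C.
HIST1H2BK: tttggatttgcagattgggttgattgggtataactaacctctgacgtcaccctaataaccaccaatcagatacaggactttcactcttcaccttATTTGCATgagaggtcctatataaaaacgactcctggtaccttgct
HIST1H2BJ: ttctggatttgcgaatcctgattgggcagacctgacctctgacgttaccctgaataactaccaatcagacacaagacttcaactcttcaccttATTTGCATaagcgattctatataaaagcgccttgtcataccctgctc
HIST1H2AC: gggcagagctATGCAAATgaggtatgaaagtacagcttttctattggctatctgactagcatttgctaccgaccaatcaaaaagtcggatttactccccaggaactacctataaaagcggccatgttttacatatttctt
HIST1H1C: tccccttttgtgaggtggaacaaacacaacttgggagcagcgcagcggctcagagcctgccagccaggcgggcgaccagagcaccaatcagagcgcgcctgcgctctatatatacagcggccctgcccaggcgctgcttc
In HIST1H2BK and HIST1H2BJ the octamer begins 46 and 47 bases before the start, and in HIST1H2AC 130 bases before it, on the other strand. Over promoters of 300 bases, searched on both strands, the octamer was found in 8 of the 20 tested histone genes that matched a RefSeq entry and in 623 of all 35116 (1.77%). It was present in 5 of the 9 called genes and in 3 of the 11 not called. These are matches of letters and not measured binding sites.

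HIST1H2BK, a histone H2B gene, rose from 165 and 158 to 1279, 1234, 1199.8 and 1221 in CUTLL1 and from 273 and 276 to 377, 358, 381 and 373 in KOPTK1. All targeted libraries lay above both controls in each line, and the line difference was 2.49 (SE 0.083, adjusted p 9.88e-10). HIST1H2AC, a histone H2A gene, rose from 179 and 151 to 1859, 1632, 1742 and 1722 and from 64.9 and 54.1 to 223, 254, 207 and 259, a line difference of 1.43. HIST1H2BJ read 42.0 and 47.2 and 318, 314, 298 and 321 in CUTLL1 against 32.0 and 30.0 and 55.4, 59.8, 44.7 and 77.7 in KOPTK1 (line difference 1.89). HIST1H1C, a linker histone gene without the octamer, rose by 2.08 in CUTLL1 and 1.06 in KOPTK1, and HIST1H2BD by 2.91 and 1.09. Histone genes are near-identical in sequence and may share reads.

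CDKN1A, which encodes the cyclin-dependent kinase inhibitor p21, rose from 125 and 105 to 1057, 985, 1008 and 1047 in CUTLL1 and from 92.0 and 95.8 to 193, 191, 208 and 217 in KOPTK1 (line difference 2.05, SE 0.12, adjusted p 1.29e-07). The controls of the lines were close, and every targeted CUTLL1 library stood far above every targeted KOPTK1 library. Of 24 tested p53 targets, 11 were called above 0 and 1 below, with a median of 0.17. The 11 became 6 without the CUTLL1 guide control, without the CUTLL1 ASO control, or without the latter and ASO 1 together, and 7 without the KOPTK1 guide control. BTG2, an antiproliferative deadenylation factor, rose by 1.24 in CUTLL1 and 0.69 in KOPTK1, with a line difference of 0.55, or 0.35, adjusted p 0.00491 under quantile scaling. SESN2, a leucine sensor that restrains mTORC1, rose by 1.31 and 0.82. The call of PLK3, a stress kinase, was lost without the CUTLL1 ASO control (0.35, adjusted p 0.0515), against 0.39 with all libraries.

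The G1 list, which shares CDKN1A with the p53 list, had 4 called above 0 and 4 below of 20. Other lists share called members too, so their counts are not separate. Examples are SESN2 and BTG2 in the p53 and FOXO lists and BAX in the p53 and BCL2 lists. KLF2 is in the immediate early and FOXO lists, and CD28 in the T-cell and NOTCH lists. Besides CDKN1A, the members above were the inhibitor CDKN2C (0.26), the retinoblastoma relative RBL2 (0.37) and E2F2 (0.52). The 4 below were 1 without the CUTLL1 guide control and 2 without CUTLL1 guide 1, CUTLL1 guide 2 or the CUTLL1 ASO control and ASO 1 together. CITED2, a transcriptional coregulator of the FOXO list, rose by 1.49 in CUTLL1, from 342 and 303 to 937, 857, 939 and 883, and by 0.47 in KOPTK1. In that list 6 were called above 0 and 4 below of 19.

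Of 20 tested immediate early genes and phosphatases, 9 were called above 0 and 1 below. Their median line difference was 0.53, or 0.34 without the KOPTK1 guide control. Besides DUSP6, the phosphatase DUSP1 rose slightly in CUTLL1 (from 529.8 and 465 to 583, 593, 596 and 518) and fell in KOPTK1 (from 862 and 822 to 511, 456, 481 and 485). ATF3, a stress-induced factor of the same bZIP class as JUN and FOS, rose from 140.5 and 113 to 385, 366, 389 and 426 in CUTLL1 and from 596 and 595 to 751, 686, 751 and 665 in KOPTK1. KLF6 rose by 0.89 and 0.43, while JUNB fell by 0.22 in CUTLL1 and 0.86 in KOPTK1. KLF2, the quiescence factor that sustains homing receptors, was the member below 0: it fell from 188 and 199 to 59.9, 45.5, 76.9 and 56.2 in CUTLL1, and KOPTK1 read 219.9 and 228 and 174, 154, 169 and 208 with no called change. EGR1 and JUND were called at 0.60 and 0.40. Both calls were lost without the CUTLL1 ASO control (0.43, adjusted p 0.212 and 0.37, adjusted p 0.0811) or the KOPTK1 guide control (0.49, adjusted p 0.162 and 0.23, adjusted p 0.144), and that of EGR1 also without CUTLL1 ASO 1 (0.56, adjusted p 0.0613) or ASO 2 (0.58, adjusted p 0.0554).

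Of 24 tested cytokine signalling genes, 8 were called above 0 and 8 below, with a median near 0 (0.003 to 0.05 when 1 library was left out). Without the KOPTK1 ASO control, 5 were below. PIM1 and PIM2, serine kinases induced by STAT5, rose in both lines but by different amounts: PIM1 from 802 and 867 to 2109.8, 2129, 2283 and 2158 in CUTLL1 and from 6618 and 6369 to 8057, 7710.2, 8525 and 8344 in KOPTK1, and PIM2 from 979.6 and 879.8 to 1636, 1492, 1558 and 1571 and from 527 and 514 to 1571, 1563, 1684 and 1598. The line differences were 1.05 (SE 0.057) and -0.87 (SE 0.075). The feedback inhibitors SOCS2 and CISH fell in CUTLL1 alone: SOCS2 from 253 and 292 to 105, 73.9, 95.9 and 57.2, with KOPTK1 at 3141 and 3257 and 3555, 3541, 3334 and 3584, and CISH from 209 and 222 to 109, 127, 132 and 115. CISH was abundant in KOPTK1, at 15411 and 14634 in controls and 14031, 13588, 14757 and 14023 after targeting, and its line difference was -0.74, or -0.38, adjusted p 0.0102 under quantile scaling. STAT5B itself fell in CUTLL1 alone, with a line difference of -0.34 (SE 0.041).

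Of 13 tested BCL2 family genes, 4 were called above 0 and 1 below. The 4 became 2 without the CUTLL1 ASO control or the KOPTK1 guide control. BCL2, which blocks cell death, fell from 3676 and 3813 to 1499, 1589, 1412 and 1578 in KOPTK1 and from 3363 and 3483 to 2142, 2249, 2133 and 2036 in CUTLL1. BCL2L11, which encodes its antagonist BIM, rose from 2084 and 2058 to 4638, 4802, 4585 and 4761 in KOPTK1 and from 3897 and 4003 to 5943, 5951, 6024 and 5915 in CUTLL1. The line differences were 0.62 (SE 0.074) and -0.59 (SE 0.042), so both genes changed further in KOPTK1. BCL2L1 differed by 0.21. The call of BAX (0.21) was lost without the CUTLL1 ASO control (0.14, adjusted p 0.15) or the KOPTK1 guide control (0.18, adjusted p 0.0803).

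Of 25 tested interferon response genes, 11 were called below 0 and 3 above, with a median of -0.25, or -0.13 under quantile scaling. The 11 became 7 without the KOPTK1 guide control or without the CUTLL1 ASO control and ASO 1 together. They did not share a direction within a line: 16 fell and 7 rose in CUTLL1, and 16 fell and 8 rose in KOPTK1. OAS2, an oligoadenylate synthetase that senses double-stranded RNA, fell from 178 and 143 to 29.5, 27.5, 21.0 and 15.3 in CUTLL1 and from 4491 and 4523 to 1787, 1839, 1726 and 1769 in KOPTK1. XAF1, an antagonist of the inhibitor of apoptosis XIAP, fell by 3.31 and 1.90. IRF7, the master factor of the type I interferon genes, rose in both lines, from 158 and 170.4 to 1109.7, 1113, 1182 and 1173 in CUTLL1 and from 112 and 134 to 1304, 1329, 1517 and 1525 in KOPTK1 (line difference -0.73, SE 0.071). ISG15, a ubiquitin-like modifier, rose in KOPTK1 alone, from 2465 and 2469.9 to 3405, 3269, 3859 and 3657. In the HLA class I list, 3 were called above 0 (20%) and 4 below (26.7%) of 15. HLA-B (0.37) and HLA-E (0.37) were above, and the immunoproteasome subunits PSMB8 (-0.52) and PSMB10 (-0.47) below.

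Of 19 tested NF-kB genes, 3 were called above 0 (15.8%, against 13.3% of all genes) and 0 below (against 13.5%). Without the CUTLL1 ASO control, 1 was above. NFKB2 differed by 0.35. The calls of TNIP1 (0.19) and CD83 (0.32) were lost without the CUTLL1 ASO control (0.15, adjusted p 0.119 and 0.29, adjusted p 0.0764), that of TNIP1 also without the KOPTK1 guide control (0.15, adjusted p 0.0869) and that of CD83 without the KOPTK1 ASO control (0.28, adjusted p 0.0606).

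Genes of glycolysis and hypoxia, listed together, were called below 0 for 10 and above 0 for 5 of 26. The hypoxia genes BNIP3L and KDM3A were among those below, and BNIP3 and EGLN3 among those above. The bifunctional enzymes that set fructose 2,6-bisphosphate rose in KOPTK1 and fell in CUTLL1. PFKFB4 went from 85.2 and 95.8 to 187, 157, 162 and 190.3 in KOPTK1 and from 314 and 319 to 256, 254, 276 and 269.5 in CUTLL1 (line difference -1.20, SE 0.15), and PFKFB3 rose by 0.58 and fell by 0.14. Hexokinase 2 (HK2), the entry enzyme of glycolysis, fell in both lines, by 1.16 in KOPTK1 and 0.60 in CUTLL1, and GLUT3 is described above.

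Of the ATF4 and serine synthesis genes, 9 were called above 0 and 3 below of 22, and 1 below without the CUTLL1 guide control or without the CUTLL1 ASO control and ASO 1 together. ASNS, asparagine synthetase, rose in CUTLL1 from 932 and 853 to 1051, 1067, 1023 and 1099 and fell in KOPTK1 from 1059.8 and 1059.5 to 794, 772, 787 and 819. VLDLR, a lipoprotein receptor, did likewise, with a line difference of 0.75, and ATF5 rose in KOPTK1 alone (-0.56). In the endoplasmic reticulum, 6 of 20 chaperones and helpers were called above 0 and 1 below. HSP90B1, CANX, PDIA4 and HERPUD1 led them, at 0.45, 0.31, 0.20 and 0.31.

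Among the cytosolic and mitochondrial heat shock chaperones, 2 were called above 0 and 5 below of 17, and 3 below without the CUTLL1 guide control. HSPA8 (-0.46), HSP90AA1 (-0.25) and TCP1 (-0.28) lay below, and HSP90AB1 (0.33) above. Cholesterol genes rose in both lines, 21 of 24 in each, and 7 were called above 0 and 3 below. HMGCS1, SQLE and MSMO1 lay above, at 0.40, 0.42 and 0.52, and LSS below, at -0.39.

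Mitotic genes rose in both, 22 of 25 in CUTLL1 and 20 in KOPTK1. The line difference was called below 0 for 5 and above 0 for 0, and for BUB1, CDC20, CDK1 and TTK it was -0.29, -0.30, -0.25 and -0.25. Without the CUTLL1 ASO control and ASO 1 together, 2 were called, and CDK1 (-0.22, adjusted p 0.0527) and TTK (-0.21, adjusted p 0.0637) were not. Replication genes had 8 called below 0 and 2 above of 25. The 8 became 4 without the CUTLL1 ASO control or the KOPTK1 guide control, 5 without the CUTLL1 guide control, the KOPTK1 ASO control, CUTLL1 guide 1 or CUTLL1 ASO 1, and 3 without the CUTLL1 ASO control and ASO 1 together. MCM10, MCM6, PCNA and MCM4 lay at -0.22, -0.26, -0.24 and -0.15, and MCM4 lost its call without the CUTLL1 pair (-0.15, adjusted p 0.0833). No mitotic or replication gene named here reached a 1.5-fold line difference.

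Genes of the mitochondrion and the ribosome, which also track RNA quality and composition, moved by small amounts. The share of mitochondrially encoded transcripts rose from 2.12% to 2.17% in CUTLL1 controls to 2.46% to 2.54% in targeted libraries, and from 2.45% to 2.48% to 3.0% to 3.25% in KOPTK1. Of 15 such genes, 5 were called below 0 and 0 above, but under quantile scaling 3 were called below and 2 above. The 5 became 1 without the CUTLL1 guide control, the KOPTK1 ASO control or the CUTLL1 pair of ASO control and ASO 1, 3 without the CUTLL1 ASO control and 8 without KOPTK1 guide 2. The line differences of MT-ATP6, MT-CO2 and MT-CO3 were -0.25, -0.24 and -0.26, and that of MT-CO2 was -0.16, adjusted p 0.00727 under quantile scaling. The call of MT-CO2 was lost without the CUTLL1 guide control (-0.22, adjusted p 0.0866) or the KOPTK1 ASO control (-0.21, adjusted p 0.0689), as was that of MT-CO3 (-0.22, adjusted p 0.0919 and -0.23, adjusted p 0.0611), and MT-ATP6 lost it without the CUTLL1 ASO control and ASO 1 together (-0.23, adjusted p 0.0712). Whether the mitochondrial share plays a part in other line differences was not tested.

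Of 27 nuclear genes of oxidative phosphorylation, 7 were called below 0 and 0 above. The 7 became 0 without the CUTLL1 ASO control and ASO 1 together, 1 without the CUTLL1 guide control or the KOPTK1 ASO control, and 4 without CUTLL1 ASO 1, KOPTK1 guide 1 or KOPTK1 ASO 1. NDUFS3, a subunit of complex I, had the smallest p of them, with a line difference of -0.17 that became -0.17, adjusted p 0.0748 without that pair. Of 35 cytosolic ribosomal protein genes, 5 were called below 0 (14.3%, against 13.5% of all genes) and 0 above (against 13.3%). Their median was -0.06 (-0.10 without the CUTLL1 ASO control to -0.02 without the CUTLL1 guide control, and -0.02 under quantile scaling). The 5 became 10 without KOPTK1 guide 2, 0 without the CUTLL1 guide control, and 1 to 3 without any of 8 others (CUTLL1 guide 1, guide 2, ASO control and ASO 1, and KOPTK1 guide control, guide 1, ASO control and ASO 1). RPS14 (-0.18) lost its call when the CUTLL1 guide control (-0.13, adjusted p 0.182), the KOPTK1 ASO control (-0.16, adjusted p 0.0868) or the KOPTK1 guide control (-0.19, adjusted p 0.051) was left out.

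Genes that neighbour CXCR4 on its chromosome showed no common direction. Of 12 tested, CXCR4 included, 4 were called above 0 and 4 below, and the median was 0.02, with a sign that turned when a library was left out (-0.05 without the CUTLL1 guide control to 0.09 without the CUTLL1 ASO control). MGAT5, which branches N-glycans, and UBXN4, an endoplasmic reticulum protein, lay below at -0.29 (SE 0.042) and -0.29 (SE 0.052), as did CXCR4 and MCM6. LCT, the lactase gene, lay above at 0.83 (SE 0.14), and read 868 and 805 in KOPTK1 controls and 337, 353, 373 and 370.0 after targeting, against 54.6 and 55.3 and 39.6, 38.8, 44.0 and 44.9 in CUTLL1. TMEM163 was at 1.18 and RAB3GAP1 at 0.19, which lost its call without the CUTLL1 ASO control and ASO 1 together (0.17, adjusted p 0.0631). The call of DARS (0.13) was lost without the CUTLL1 ASO control (0.14, adjusted p 0.0741), the CUTLL1 guide control (0.13, adjusted p 0.0901) or the KOPTK1 ASO control (0.10, adjusted p 0.0779). CCNT2, R3HDM1, SPOPL and ZRANB3 were not called (0.07, -0.02, -0.13 and 0.29), though ZRANB3 was without the CUTLL1 ASO control (0.50, adjusted p 0.0175) or CUTLL1 ASO 1 (0.36, adjusted p 0.0348).

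Among the BET proteins and regulators of the elongation factor P-TEFb, 2 were called above 0 and 1 below of 15. These shares, 13.3% and 6.67%, did not exceed the 13.3% and 13.5% of all tested genes. HEXIM1, which holds P-TEFb inactive, lay at -0.43 (SE 0.034), with levels of 3897 and 3961 and 11189, 11145, 11355 and 11306 in CUTLL1 and 3741 and 3794 and 14141, 14502, 14784 and 14626 in KOPTK1. ELL2 was at 4.17, but it passed the filter on low values in only 20 of the 28 alternative settings. Where it could be tested with 1 library left out, its value ran from 3.42 to 4.93, so the size of this line difference is uncertain. MEPCE was at 0.26, which lost its call without the CUTLL1 ASO control and ASO 1 together (0.21).

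Many of the largest line differences belonged to genes that 1 line hardly expressed, though CEP128, DUSP6 and DAB2IP, described above, were expressed in both lines. Of 1413 tested genes with a mean under 20 in 1 line, 320 were called (22.6%), and they made up 306 of the 636 calls over 2-fold. For such genes the fitted line difference depends on the pseudocount of 1, and levels say more. PPARG, the adipocyte and macrophage nuclear receptor, fell from 629 and 689 to 5.53, 3.79, 2.0 and 4.08 in CUTLL1, and KOPTK1 had 1.94 and 0.652 in controls and 0 in all 4 targeted libraries. PLCH1, a phospholipase C, fell from 1234 and 1316 to 27.6, 32.2, 29.0 and 29.6 in CUTLL1 with KOPTK1 at 3.87 or less. By edgeR on recovered reads, neither PPARG (-3.66, adjusted p 0.895) nor PLCH1 (-3.51, adjusted p 0.13) was called.

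The p38 kinase MAPK12 fell in CUTLL1 from 448 and 458 to 61.7, 54.9, 64.9 and 71.5, with KOPTK1 at 16.1 or less. TMCO4 and the calcium sensor NCS1 fell in CUTLL1 alone, TMCO4 from 491 and 473 to 48.8, 61.6, 68.9 and 59.2 and NCS1 from 1955 and 1907 to 351, 313, 349.7 and 351, with KOPTK1 at 1.34 or less for both. Neither line difference was called by edgeR (-4.90, adjusted p 0.165 and -4.97, adjusted p 0.0704) or DESeq2 (-4.32, adjusted p 0.0748 and -4.46, adjusted p 0.0567). CAMKV fell from 912 and 874 to 263, 241, 277 and 256 in CUTLL1 and rose from 7.75 and 11.7 to 36.9, 48.3, 34.2 and 41.6 in KOPTK1. On the KOPTK1 side, CD40LG, the T-cell help ligand CD154, fell from 2633 and 2561 to 91.1, 102, 113 and 101, with CUTLL1 at 3.0 or less. SHC4, a signalling adaptor that both lines expressed, fell to 16.0, 10.4, 13.1 and 12.1 in KOPTK1 from 361 and 359.9 and to 58.9, 65.4, 62.9 and 64.3 in CUTLL1 from 102 and 85.2. PRG4, which encodes lubricin, and NEXN, an actin-binding protein, fell in KOPTK1 to 6.16, 6.90, 8.76 and 18.8 and 202, 201, 199.7 and 166 from controls of 886 and 816 and 2008 and 2092. SCN7A, a sodium channel gene, fell in KOPTK1 from 1614 and 1747 to 139, 152, 133 and 146, and its line difference of 4.20 was not called by edgeR (3.58, adjusted p 1) or DESeq2 (3.46, adjusted p 0.217).

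TXNIP, an inhibitor of glucose uptake that is itself induced by glucose, read 1450.2 and 1418 in KOPTK1 controls and 2689.7, 2524, 2546 and 2495 after targeting. In CUTLL1 it was low in controls (13.7 and 21.9) and lower after targeting (2.76, 3.79, 6.99 and 1.02), and the line difference was -2.99 (SE 0.54). PCDH10, a protocadherin, rose from 265 and 278 to 762, 761, 772 and 795 in KOPTK1, where CUTLL1 was at 4.61 or less. The immunoglobulin segment IGHV4-34 rose from 462 and 421 to 704, 702, 735 and 717 in KOPTK1, with CUTLL1 at 6.91 or less. CHST1, a sulfotransferase, rose in CUTLL1 from 1.15 or less to 19.3, 19.9, 18 and 23.5, and its line difference of 3.70 was 2.03, adjusted p 5.01e-06 with a pseudocount of 5. Of the unnamed transcripts, RP11-13A1.1 fell in KOPTK1 from 657 and 699 to 9.85, 3.45, 8.76 and 9.38, and RP11-1055B8.7 fell in CUTLL1 from 651 and 716 to 18.4, 17.1, 41.0 and 16.3.

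The opposite calls ranked first by the smaller of their effects in the lines were of this kind too. CRB1, LRP4 and ID1, an inhibitor of E proteins, fell in CUTLL1 from controls of 494 to 563, 510.3 to 526 and 498 to 506 to 123 to 193, 138 to 174 and 162 to 177. In KOPTK1 they were low, at 0.969 to 5.87, 9.69 to 20.9 and 20.2 to 20.3 in controls and 3.69 to 12.3, 25.9 to 36.2 and 31.5 to 49.6 after targeting. LGMN, VGF and MEST rose in CUTLL1, LGMN from 215 and 234 to 837, 838, 893 and 869, VGF from 126 and 153 to 385, 308, 389 and 347 and MEST from 146 and 154 to 463, 436, 453 and 469.7, and in KOPTK1 no library of theirs exceeded 17.4. VGF lost its call without the CUTLL1 ASO control and ASO 1 together (3.23, adjusted p 0.0504).

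ZSCAN16 rose from 184 and 199 to 325, 301, 309.7 and 332 in CUTLL1, with KOPTK1 under 1 throughout, and was not called by edgeR (3.66, adjusted p 0.098) or DESeq2 (2.68, adjusted p 0.216). GALNT12 rose from 544 and 497 to 1248, 1231, 1184 and 1231 in CUTLL1. Its line difference of 2.16 was 1.23, adjusted p 0.00766 without the KOPTK1 ASO control, the only KOPTK1 library above 0 (2.61), and 2.11, adjusted p 0.0538 without the CUTLL1 ASO control and ASO 1, but larger in edgeR's test (4.87, adjusted p 0.0163) and in that of DESeq2 (3.74, adjusted p 0.0321). ZCCHC14 rose in KOPTK1 from 680.1 and 635 to 1762, 1825, 1763 and 1802, and its line difference of -2.33 was -1.47, adjusted p 0.00133 without the CUTLL1 ASO control, which read 5.76 where the other CUTLL1 libraries read 0.921 to 1.02.

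Markers of other cell types were mostly absent or low. Of 13 myeloid markers 7 were at 0 in all 12 libraries, CSF1R, CSF3R and ELANE among them, and 1 could be tested. The sum over the list was 11409 to 11766 in CUTLL1 controls, 7064 to 7577 in targeted CUTLL1, 6519.6 to 6610.3 in KOPTK1 controls and 4342 to 4632 in targeted KOPTK1 libraries. Nearly all of this sum was the single gene AIF1, since every other member had a mean under 20. The tested member, AIF1, was not called (-0.11), but was without the CUTLL1 ASO control (-0.17, adjusted p 0.0366). The defining B-cell marker MS4A1 was at 0 in all 12 libraries, and the sum of 11 B-lineage markers fell from 899 to 915 to 313 to 335 in CUTLL1 and from 4570 to 4653 to 522 to 633 in KOPTK1.

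Of the 3 B-lineage genes tested, 2 were called above 0. IGLL1, the surrogate light chain that precursor leukaemias can express, fell from 514 and 546 to 67.2, 61.6, 61.9 and 71.5 in CUTLL1 and from 1949 and 1966 to 54.2, 61.0, 55.2 and 49.6 in KOPTK1, and CD79A fell by 0.72 and 2.39. The cytotoxic genes CST7 and NKG7 fell further in KOPTK1, with line differences of 1.37 and 0.64. The sum of 11 cytotoxic markers fell from 2989 to 3079 to 762 to 886 in CUTLL1 and from 2379 to 2389 to 425 to 512 in KOPTK1. COL1A1 was the fibroblast gene with the smallest p. Its line difference of -1.46 was not called, and it was -0.48, adjusted p 0.409 without guide 1 of KOPTK1, the library with the fibroblast genes, but was called without guide 2 of KOPTK1 (-2.23, adjusted p 0.0426). In the erythroid list only the receptor gene EPOR could be tested (-0.32), and its call was lost without any 1 library other than the CUTLL1 ASO control or KOPTK1 guide 2, with values from -0.38 to -0.23. The parts of these cells, if any are present, in the other line differences were not tested.

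The line difference was next set side by side for guides and for ASOs, which have separate controls and separate targeted libraries in each line. The guide and ASO controls of a line were about as close (chi-square per gene 2.29 to 4.28) as the 2 targeted libraries of 1 agent (3.74 to 6.77). The labels do not state separate cultures, and whether the agents form independent experiments was not tested. Over all tested genes the sign was the same with both agents for 75.2%, and it was the same for all 3670 called genes, which were called from these same libraries. Across genes the line differences with guides and with ASOs correlated with Pearson's r of 0.72 and Spearman's rho of 0.62. CEP128 had 4.29 with guides and 4.01 with ASOs, MAL -2.12 and -2.15, CDKN1A 1.97 and 2.14, and HIST1H2BK 2.50 and 2.49.

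The difference between agents in the line difference was called for 0 genes by limma, with 530 (3.87%) at an unadjusted p under 0.05 and a smallest adjusted p of 0.413. By edgeR it was called for 0 genes and by DESeq2 for 2, MYO18B and TRBV6-6, with 401 and 66 at an unadjusted p under 0.05. Without CUTLL1 ASO 1, 7 genes were called, among them MYO18B, COTL1 and TRBV29-1, which are close to absent from CUTLL1 except in its ASO control: MYO18B read 61.0 there, 25 in ASO 1 and 3.90 to 7.58 in the other 4 CUTLL1 libraries, against 12951 to 15818 in KOPTK1. Without CUTLL1 ASO 2 or without KOPTK1 ASO 1, 2 genes were called each. A p that misses the threshold does not show that guides and ASOs act alike.

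**Figure D5:**
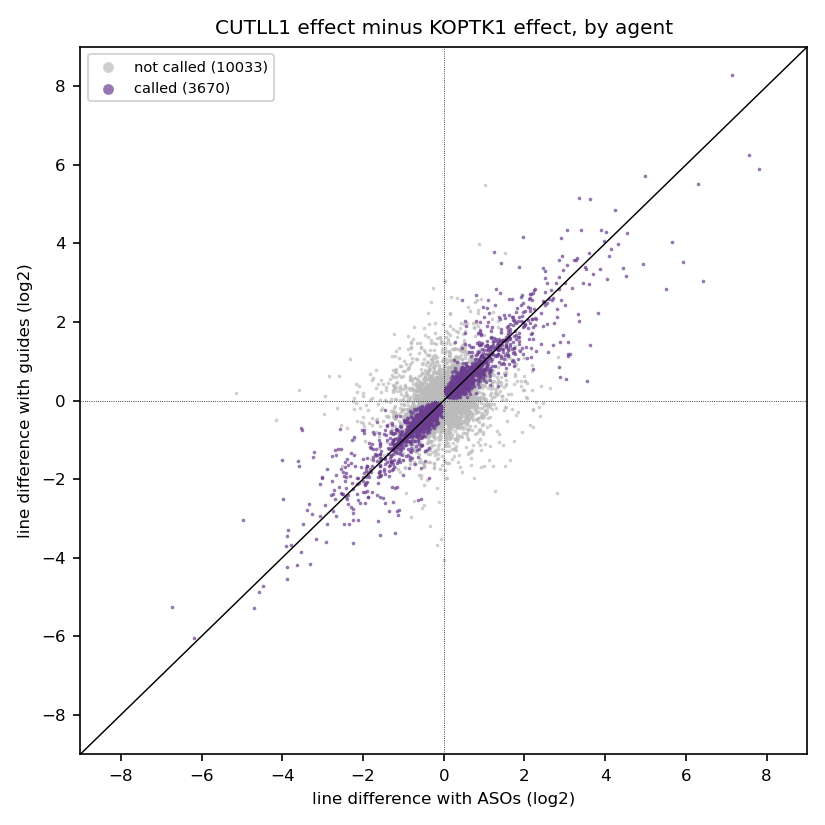
Line difference (CUTLL1 effect minus KOPTK1 effect, log2) of each tested gene with ASOs (x axis) and with guides (y axis); the diagonal marks equal values. The 3670 called genes, in purple, lie in the lower left and upper right quadrants, and the 10033 others in grey scatter around 0.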

How the data were processed

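RNA-seq of 12 libraries was analysed. The deposited table holds a signal in normalised read counts that the authors made, for 57820 genes. Per the submitters' processing notes, STAR (version 1.4.2), DESeq2 and hg19 were used, without stated roles. Neither counter nor annotation nor use of strand is given in the sources used here, and antisense, overlapping and near-identical genes may share reads. In 11 libraries the deposited signal gave whole reads after division by 1 step (tolerance 1e-06), and all values of these came out whole. The step of CUTLL1 ASO 1 was too near 1 to recover its reads, and it was left out of the count tests.

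limma (3.58.1, R 4.3.3) was fitted to log2(value + 1) of the 13703 genes with a mean of 20 or more, with 4 means (line by agent) and 1 targeting effect per line, leaving 6 residual degrees of freedom. A lone control was assumed to vary like the other groups. Guides minus ASOs came from 8 group means (4 degrees of freedom). edgeR (4.0.16) and DESeq2 (1.42.0) on recovered reads of 11 libraries, another pseudocount, filter and scaling, robust moderation, a replicate block, each agent or number alone and leaving out each library were alternatives. The code was tested on simulated data. Depth per library and library checks are given in the report; precision is given as the SE of each line difference.

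Named genes were, by rule, the 10 largest line differences in each direction (mean of 100 or more, same sign with both agents), the 6 opposite calls of each kind with the largest smaller effect, from each list up to 4 called members of smallest p, and CXCR4 with its neighbours. Of the list members so chosen, 7 of the mitochondrial, oxidative phosphorylation and ribosomal lists are given in counts only, and a few genes of the T-cell and homing lists are not reported here by name. Other genes were added after their values were seen. The members and lists were chosen with earlier results of these data known. Titles and descriptions differ on whether the numbers mark guides and ASOs or replicates, and no shared deviation of same-numbered libraries was seen.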

Additional observations from a re-analysis of the deposited data

How the results depend on the processing

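With all 12 libraries 3670 genes were called, against 1042 with guide libraries alone (568 above 0 and 474 below, 1004 of them among the 3670) and 1605 with ASO libraries alone (723 and 882, 1527 among the 3670). Guide and ASO number 2 alone called 1807 (896 and 911). Leaving out 1 library gave 2376 to 3980 genes (1182 to 1952 above, 1194 to 2028 below), and leaving out the CUTLL1 ASO control and ASO 1 together, chosen after seeing the data, gave 2001 (1015 and 986). Other filters, scalings, tools and a pseudocount of 5 stayed within 1.5 times of 3670, with DESeq2 lowest at 2591. The difference between guides and ASOs in the line difference had 0 calls, but 2334 with no filter on low values, of which 2245 had a mean under 20; quantile scaling gave 1, DESeq2 2 and leaving out 1 library 0 to 7. The fit with a replicate block called 3733 genes. Deviations of same-numbered libraries correlated between -0.030 and 0.050 over 6 pairs of groups, so no shared deviation by number was seen. Libraries of a group differ little, so this cannot show whether a number marks the same guide or ASO in both lines. Of 192 called genes of the text, 129 kept their call and direction in every alternative setting in which they were tested. CD8B, MEST, LCT, TMEM163 and CDKN2C, among others, were called neither with guides alone nor with ASOs alone. The sign changed for 4 genes that were not called. Leaving out 1 library gave -0.0167 to 0.148 for CCNT2, -0.294 to 0.0286 for SPOPL, -0.103 to 0.0111 for CD3D and -0.0753 to 0.0349 for R3HDM1. CD3D was 0.00578 under quantile scaling and 0.0219 with number 2 alone, and R3HDM1 was 1.98e-05 under quantile scaling, 0.0188 with guides alone, 0.0061 by edgeR and 0.0349 without the CUTLL1 ASO control and ASO 1. With guides alone DHRS2 was -1.0, adjusted p 0.0488 and ZCCHC14 -1.43, adjusted p 0.0415, and with ASOs alone EFR3B was -2.57, adjusted p 0.00207. Quantile scaling ended the calls of HSP90AA1 (-0.10, adjusted p 0.212), MCM4 (-0.01, adjusted p 0.82), NFKB2 (0.16, adjusted p 0.136), PLK3 (0.20, adjusted p 0.0978), RHOU (-0.35, adjusted p 0.0812) and EGR1 (0.45, adjusted p 0.0733). For these results the cause was not tested. Every control is a lone library of its agent, and genes near 0 in 1 line are limited by depth there.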

Other observations

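Further genes with large line differences, picked by size after their values were seen, fell outside the lists. ICOS, a costimulatory receptor of T cells, fell in CUTLL1 from 441 and 421 to 44.2, 32.2, 48.0 and 36.8 and in KOPTK1 from 4153 and 4283 to 1129, 1384, 1181 and 1235, a line difference of -1.63 (SE 0.19). GIMAP6, a GTPase of lymphocyte survival, fell by 3.92 in CUTLL1 and fell by 2.33 in KOPTK1. MYO7B, an unconventional myosin best known from the gut brush border, was abundant in both lines and fell from 16393 and 16570.5 to 1879.6, 1764, 1851 and 1910.3 in CUTLL1 and from 44059 and 42411 to 14568, 14118, 14868 and 15322 in KOPTK1.

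The deeper fall was in KOPTK1 for CLEC2D, the ligand of the natural killer receptor CD161, which went from 448 and 426 to 39.4, 33.4, 30.7 and 38.9 there and from 226 and 236 to 70.0, 83.4, 59.9 and 81.7 in CUTLL1. ZHX2, a zinc-finger and homeobox repressor, fell by 2.94 in KOPTK1 and 1.04 in CUTLL1. ULBP1, a ligand of the activating receptor NKG2D, moved in opposite directions, from 931 and 909 to 1168, 1237, 1173 and 1175 in CUTLL1 and from 1142 and 1084 to 888, 861, 875 and 794 in KOPTK1 (line difference 0.75, SE 0.071, adjusted p 9.38e-06, limma). PTPRG, a receptor tyrosine phosphatase, rose by 0.52 in CUTLL1 and fell by 0.74 in KOPTK1, and AIFM2, which protects membranes from lipid peroxidation, fell by 0.72 in CUTLL1 and rose by 0.43 in KOPTK1. Leaving out any 1 library changed none of these genes' calls for the line difference.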
